A study of Homo sapiens with 6 samples.

Results

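The 42 genes described here encode the steps from glucose uptake to lactate, together with the oxygen-sensing system and genes commonly induced by low oxygen. They were listed by name for their known roles, with earlier results of these data known, and every probe set whose platform symbol is a member was taken. Of the 42, 41 had a probe set assigned to 1 gene, and all 41 lay past the filter on dim probe sets, among 14308 genes tested on the array. CA9 is named only.

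RNA came from LS174T cells, a mucin-producing line grown from a human colon adenocarcinoma. The treated group was 3 cultures given CompE at 250 nM for 48 h, and the comparison group was 3 cultures given the vehicle DMSO for 48 h, with 1 Affymetrix Human U133 Plus 2.0 array per culture. CompE commonly stands for Compound E, which blocks gamma-secretase, the membrane protease that frees the signalling fragment of Notch receptors. The labels spell out no more than the abbreviation, and they name neither a genetic change nor an altered oxygen supply for either group. The design therefore holds 1 line, 1 dose and 1 time. In bulk RNA of this kind, fewer cells that express a gene and less of its RNA per cell cannot be told apart.

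Glycolysis turns glucose into pyruvate through a chain of cytosolic enzymes, and lactate dehydrogenase then turns pyruvate into lactate. Many genes of that chain are induced by the hypoxia-inducible factors, which pair an oxygen-labile alpha subunit (HIF1A or EPAS1) with ARNT. When oxygen is present, prolyl hydroxylases of the EGLN family mark the alpha subunit for removal by the VHL ubiquitin ligase, so control of this factor acts largely on the protein rather than on its mRNA. Colon carcinoma lines commonly take up much glucose and release lactate even with oxygen at hand.

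The arrays were alike in scale, with median probe set intensities between 36.9 and 38.6, and the Notch readouts differed between the groups (5 of 10 higher and 3 lower in CompE cells, among them HES1 at a log2 difference of -1.49). All 12 colon epithelium markers exceeded the level of the array's Bacillus transcripts, a background measure with no human target (an intensity of 45.7, the 95th percentile of 27 probe sets). LGALS4, the brightest, averaged 8050.3 in CompE and 8408 in DMSO cells. Above that level stood 4 of 7 fibroblast markers (COL1A1 the brightest at 99.2 in CompE and 96.0 in DMSO cells), 1 of 6 endothelial markers (PECAM1) and 3 of the 5 leukocyte markers with a named probe set (LYZ the brightest). The leukocyte list summed to 1371 to 1572 on CompE arrays and to 1705 to 2025 on DMSO arrays. LYZ, which secretory cells of the gut also make, made up most of that sum. All 4 leukocyte markers past the filter on dim probe sets had a log2 difference below 0 (median -0.33), and 0 passed the adjusted test described below. Sums of the fibroblast list (356 to 359 in CompE, 293 to 418 in DMSO) and of the endothelial list (254 to 288 in CompE, 268 to 349 in DMSO) overlapped between the groups. The part of these markers in the results below was not tested.

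Of the 41 members tested, 4 fell in CompE cells (SLC2A1, PDK1, ANKRD37 and DDIT4) and 1 rose (ADM). The test was limma's moderated fit on log2 intensity over the whole table with Benjamini-Hochberg adjustment, and a call means an adjusted p under 0.05. Among all genes tested the fit called 7.14% (4.56% higher and 2.57% lower in CompE), and among the members 12.2%, mostly lower, which with 41 genes is a difference of a few calls. Direction was less even: 31 of the 41 members had a log2 difference below 0, against 45.1% of all genes. The members' median log2 difference was -0.12 and that of all genes 0.020. All 3 CompE arrays lay below all 3 DMSO arrays for 20 members and above them for 3, where 13.0% and 19.1% of all genes do so. Dropping the filter on dim probe sets adds genes to the adjustment and to the spread estimate shared across genes. With no filter, limma called 0 members (1 higher and 11 lower at an unadjusted p under 0.05) and 363 of 19775 genes. The scale of the arrays bears on the signs and calls. On the authors' scale 653 genes were higher and 368 lower. Centring each array on its hybridisation controls, RNAs added in fixed amounts, gave 340 higher and 1552 lower, and the median of all genes became -0.12. Such centring shifts all genes alike, so the distance of the members' median from that of all genes is fixed at -0.14.

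**Figure D1:**
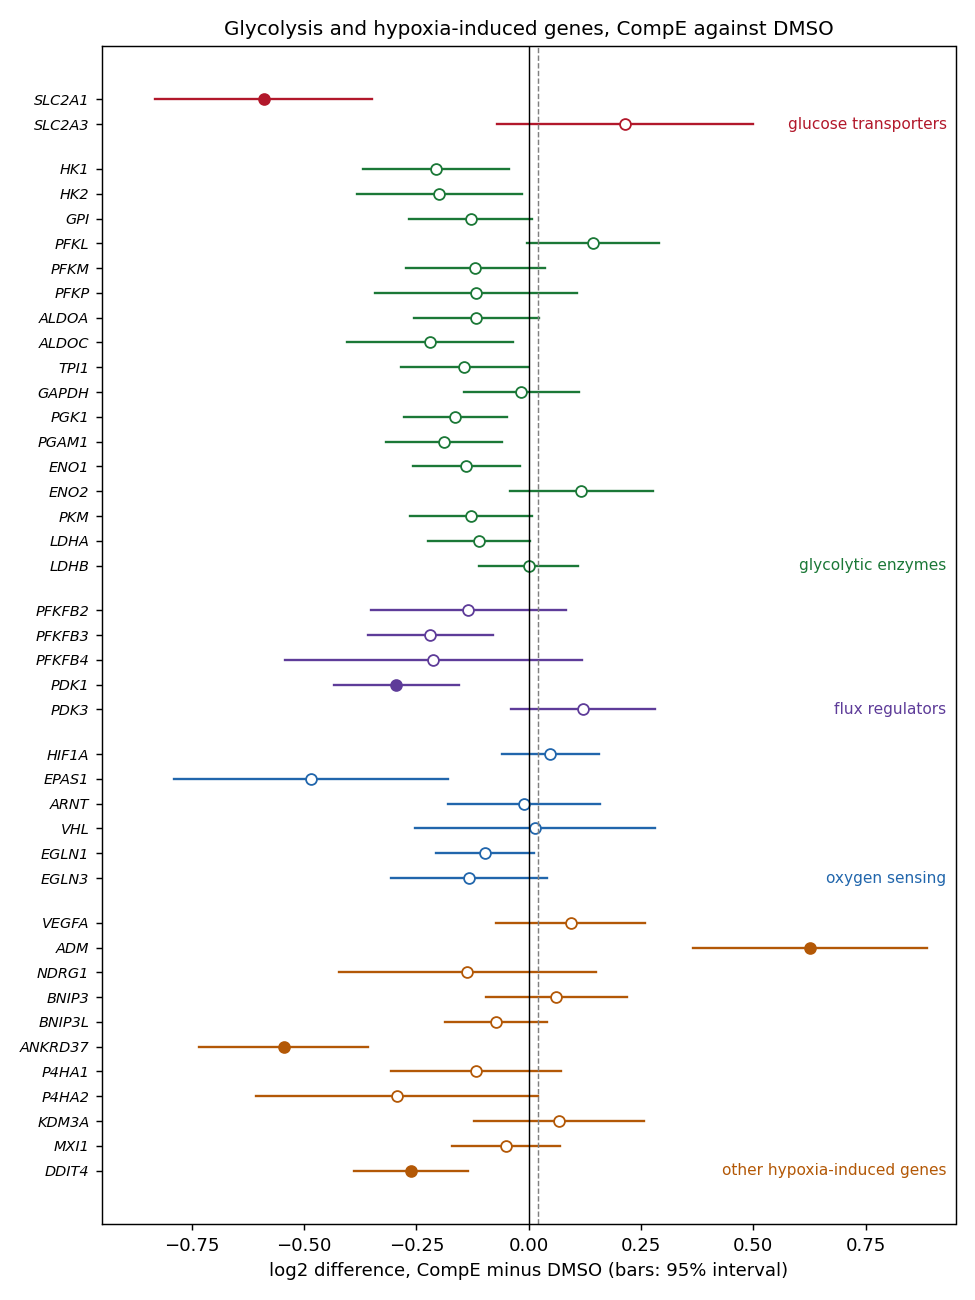
Log2 intensity difference, CompE minus DMSO (x axis), for the 41 members tested, grouped by role, each as a point with its 95% interval (3 arrays per group). Filled points passed the adjusted p of 0.05 and the dashed line is the median of all 14308 genes at 0.02. Most enzymes sit between -0.22 and -0.11, while the 5 filled points are spread over other roles.

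The promoters of the 5 called members are shown because all 5 are known HIF targets and they moved in both directions. The hypoxia response element has the core letters ACGTG or GCGTG, which were searched on both strands of the RefSeq promoter table (GRCh38.p14), from 250 bases before to 50 after each gene's start. A CACGTG, which is also an E-box, counts once on each strand. Of 36 members in the table, 32 held a match (88.9%), against 52.4% of 27305 genes. By start site it was 42 of 62 (67.7%) against 48.4% of 35116. The background is every gene of the promoter table, not only those tested here. Members were chosen as glycolytic, oxygen-sensing or hypoxia-induced genes, so this excess may follow from the choice and is no result of these arrays. Matches stood in 16 of 17 enzyme genes, 8 of 9 other hypoxia-induced genes and all 5 called genes, ADM included. In the lines below capitals mark the matches, and CACGT is ACGTG on the opposite strand.
The promoter of SLC2A1, on the minus strand of chromosome 1 (chr1:42958819-42959118), has 1 match, 26 to 30 bases after the start.
SLC2A1: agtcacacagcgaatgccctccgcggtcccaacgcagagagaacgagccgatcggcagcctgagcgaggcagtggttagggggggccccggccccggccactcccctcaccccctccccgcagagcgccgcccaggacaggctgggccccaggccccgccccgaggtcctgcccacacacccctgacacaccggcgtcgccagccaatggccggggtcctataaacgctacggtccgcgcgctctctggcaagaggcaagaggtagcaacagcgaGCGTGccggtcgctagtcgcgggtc
PDK1, on the plus strand of chromosome 2, has 2 start sites in the table. The one at chr2:172555840-172556139 has 2 matches from -17 to -4, and the one at chr2:172555123-172555422 has 0.
PDK1: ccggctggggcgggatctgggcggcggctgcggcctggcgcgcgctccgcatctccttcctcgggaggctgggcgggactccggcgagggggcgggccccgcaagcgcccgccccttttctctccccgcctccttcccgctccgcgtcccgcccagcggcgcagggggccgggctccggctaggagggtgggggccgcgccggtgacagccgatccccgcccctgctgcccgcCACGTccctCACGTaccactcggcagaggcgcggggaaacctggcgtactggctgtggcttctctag
ANKRD37, on the plus strand of chromosome 4 (chr4:185396591-185396890), has 3, which include a CACGTG from -162 to -157.
ANKRD37: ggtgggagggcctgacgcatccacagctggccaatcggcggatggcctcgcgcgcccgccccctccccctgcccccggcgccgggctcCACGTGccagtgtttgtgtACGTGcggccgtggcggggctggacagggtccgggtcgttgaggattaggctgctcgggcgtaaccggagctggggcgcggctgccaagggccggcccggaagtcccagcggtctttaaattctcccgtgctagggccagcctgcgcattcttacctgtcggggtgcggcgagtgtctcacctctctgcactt
DDIT4, on the plus strand of chromosome 10 (chr10:72273674-72273973), has 4, between -219 and 30.
DDIT4: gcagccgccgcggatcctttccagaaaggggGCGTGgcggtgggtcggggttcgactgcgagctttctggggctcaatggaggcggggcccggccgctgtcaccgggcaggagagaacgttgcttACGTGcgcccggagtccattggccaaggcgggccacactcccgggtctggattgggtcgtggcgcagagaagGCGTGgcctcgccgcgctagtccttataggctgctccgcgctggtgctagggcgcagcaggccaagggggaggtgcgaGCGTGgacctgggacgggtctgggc
ADM, on the plus strand of chromosome 11 (chr11:10304823-10305122), has 1, from -101 to -97.
ADM: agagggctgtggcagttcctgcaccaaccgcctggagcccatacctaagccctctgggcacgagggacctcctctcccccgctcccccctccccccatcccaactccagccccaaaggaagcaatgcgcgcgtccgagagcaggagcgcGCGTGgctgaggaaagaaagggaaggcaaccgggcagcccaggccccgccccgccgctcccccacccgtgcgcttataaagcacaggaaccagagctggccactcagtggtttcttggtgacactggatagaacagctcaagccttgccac
A match is a description of these letters, not a bound site, and the gene that rose is not set apart from those that fell by having one.

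Glucose enters these cells through facilitative transporters, of which SLC2A1 (GLUT1) is the basal and hypoxia-inducible one. The chosen SLC2A1 probe set read 210.1, 246 and 199.7 on the CompE arrays and 354, 317 and 313 on the DMSO arrays. The groups did not overlap, and the highest CompE array (replicate 2) stayed well below the lowest DMSO array. Mean intensity was 219 ± 24.3 in CompE and 328 ± 22.6 in DMSO cells (SD, n = 3 each), a log2 difference of -0.59 (SE 0.098, adjusted p = 0.0269) or 33.6% less. A second SLC2A1 probe set lay below the Bacillus level in both groups. The SLC2A1 call held without CompE replicate 2 (adjusted p = 0.0275) and was lost on leaving out any other single array (0.0703 to 0.1001). It was also lost with the mean of its probe sets. SLC2A3 (GLUT3), the high-affinity transporter best known from neurons, averaged 29.5 in CompE and 25.6 in DMSO cells, under the Bacillus level in both, so no difference is given for it.

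No enzyme of the chain passed the adjusted test, yet 15 of 17 had a log2 difference below 0 (12 with the mean of each gene's probe sets). Hybridisation control centring put all 17 below 0, but it lowers all genes alike. The distance of the enzyme median from the median of all genes stayed at -0.15. Other settings called several enzymes, but each of these also called more genes in all than the main fit did (totals in the section on processing). Called lower were 12 enzymes with hybridisation control centring and 11 with trended robust variance. Of the 15 kept among the 10896 least variable probe sets, 10 were lower and 2 higher. The enzymes' median in the main fit was -0.13, or -8.52%, and the values ran only from -0.22 to 0.14. Without adjustment 7 were lower and 0 higher at p under 0.05, where 9.55% of all genes were lower and 15.0% higher. All CompE arrays lay below all DMSO arrays for 12 of the 17, against 13.0% of all genes. Differences of this size are small for 6 arrays to resolve. The enzymes' SEs ran from 0.045 (LDHB) to 0.091 (PFKP), where the median SE over all genes tested was 0.082.

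The first steps prepare glucose for cleavage. The hexokinases HK1 and HK2, which trap glucose as its phosphate, differed by -0.21 and -0.20 on the log2 scale, and GPI, the isomerase of the next step, by -0.13. The phosphofructokinase subunits did not share a direction: PFKM differed by -0.12 and PFKP by -0.12, whereas PFKL, the liver-type subunit, differed by 0.14 (below 0 with hybridisation control centring) and was the 1 enzyme for which all CompE arrays lay above all DMSO arrays. A second PFKL probe set gave 0.15. ALDOA and ALDOC, the aldolases that split the sugar, differed by -0.12 and -0.22, the second being the lowest value of the chain, and TPI1, which interconverts the products, by -0.14.

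In the energy-yielding steps the same lean was seen. PGK1, which makes the first ATP of the chain, read 6656, 6829 and 6827 in CompE and 7565, 7782 and 7403 in DMSO cells. The groups were well apart relative to their spread, at 6771 ± 99.2 in CompE and 7583 ± 190.0 in DMSO cells (SD, n = 3 each). Its log2 difference of -0.16 (95% interval -0.28 to -0.048) had an adjusted p of 0.099 and so was not called. Of its 5 further probe sets past the filter, the 4 brighter ones lay between -0.12 and -0.11. PGAM1, the mutase of the following step, differed by -0.19 and had the smallest adjusted p among the enzymes (0.0951).

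GAPDH, which oxidises the triose phosphate and often serves as a reference gene, read 10518, 10936 and 10050.2 on CompE arrays and 10749, 10545 and 10564 on DMSO arrays. The groups overlapped, with CompE replicate 2 the highest of all and CompE replicate 3 the lowest. The log2 difference was -0.017 (95% interval -0.14 to 0.11), and it turned to 0.014 without CompE replicate 3. The 5 other GAPDH probe sets, the 3 Affymetrix control sets among them, lay between -0.052 and -0.0068. The probe set that stands for GAPDH, like those chosen for ALDOA and LDHB, carries the suffix that marks probes shared with other sequences, so near-identical copies of these genes may add to the signal.

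At the end of the chain ENO1, the main enolase, differed by -0.14 and PKM, which encodes the muscle-type pyruvate kinases, by -0.13. A second, far dimmer PKM probe set (means of 187 in CompE and 172 in DMSO cells) gave 0.12. ENO2, the neuronal enolase, differed by 0.12 with overlapping groups. LDHA, the hypoxia-inducible lactate dehydrogenase subunit, read 9365, 9543 and 9108 in CompE and 10197, 10066 and 9985 in DMSO cells. Every CompE array was below every DMSO array, by a log2 difference of -0.11 (95% interval -0.22 to 0.002, adjusted p = 0.21). LDHB, the subunit that hypoxia is not known to induce, differed by -0.00 (95% interval -0.11 to 0.11), the smallest in size among the members.

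Bright probe sets were also counted on their own. Of the 17 enzymes, 10 had a mean log2 of at least 12 (an intensity of 4096), and all 10 had a difference below 0, with a median of -0.13 and a range from -0.19 to -0.00, and 8 of them had all CompE arrays lower. Among the 327 genes that bright, 44.0% were below 0, 17.1% had all CompE arrays lower, 1.83% were called in either direction, and the median was 0.0058. The 7 dimmer enzymes had a median of -0.12. Hybridisation controls were brighter on the CompE arrays (means of log2 11.76, 11.83 and 11.69 in CompE and 11.63, 11.61 and 11.62 in DMSO, exact permutation p = 0.1, the smallest that 3 against 3 can give), and centring on them moved the enzyme median to -0.27. Such centring shifts all genes alike, so the distance of -0.15 from the median of all genes is fixed and says nothing on the scaling.

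**Figure D2:**
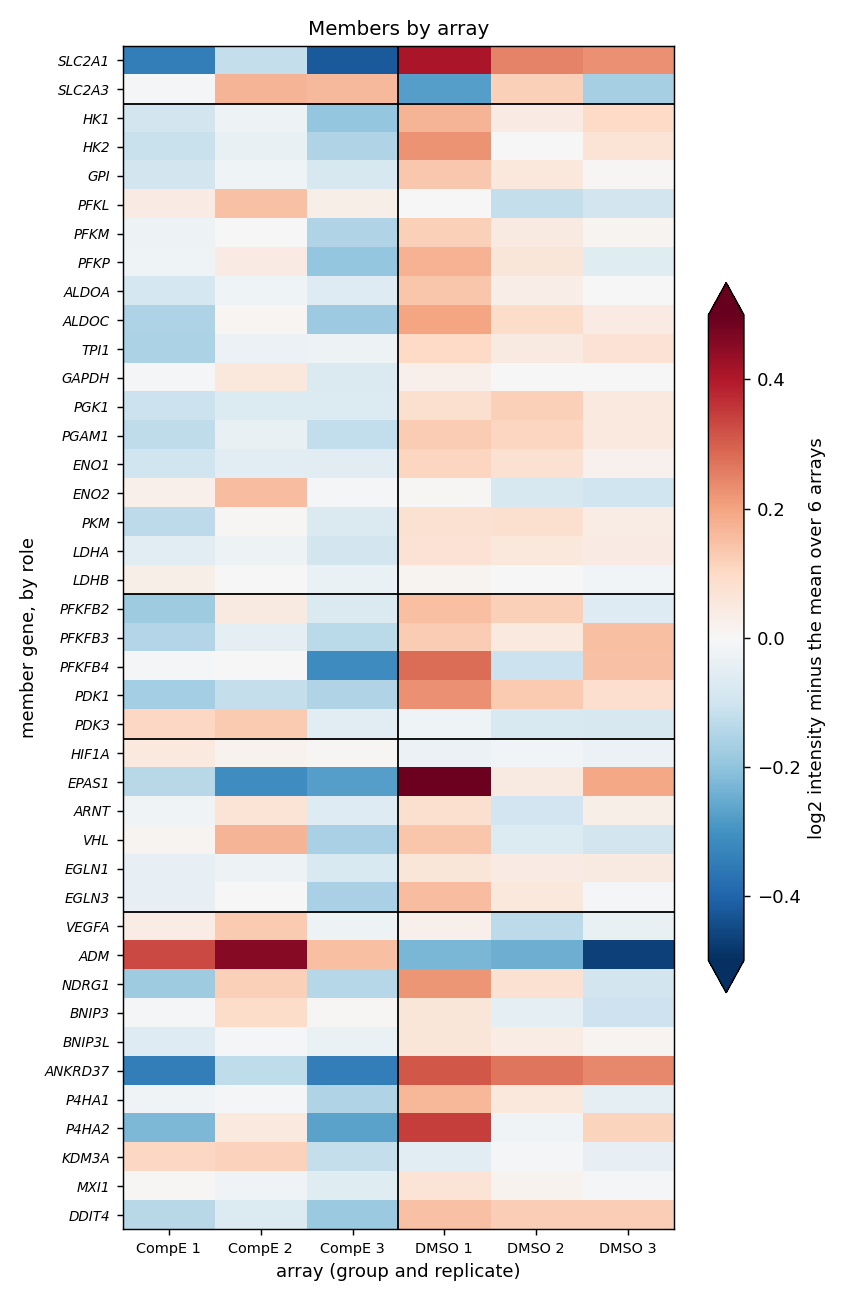
Log2 intensity of each member minus its mean over the 6 arrays (colour, cut at 0.5 in either direction), with arrays in columns and members in rows by role. Among the enzymes CompE columns are mostly blue and DMSO columns mostly red, with CompE replicate 2 the palest CompE column and DMSO replicate 1 the deepest DMSO column.

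Enzymes that steer the flow of carbon had the lowest median of the roles with more than 2 members, a log2 difference of -0.21 with 4 of 5 below 0. It was -0.13 without CompE replicate 3 or without DMSO replicate 1, and -0.36 with hybridisation control centring, which put all 5 below 0. That centring lowers all genes alike, and the distance from their median stayed at -0.23. PDK1, the kinase that shuts pyruvate out of the mitochondrial dehydrogenase and a well-known HIF target, read 982, 1017 and 996 in CompE and 1294, 1211 and 1171 in DMSO cells. The CompE arrays were tightly grouped and all below the DMSO arrays. PDK1 averaged 998 ± 17.7 in CompE and 1225 ± 62.4 in DMSO cells (SD, n = 3 each) and fell by 18.5% (log2 difference -0.29, SE 0.056, adjusted p = 0.0368). A second PDK1 probe set differed by -0.44, and another lay below the Bacillus level in both groups. The call was lost whichever single array was left out (adjusted p 0.081 to 0.128) and with the mean of all its probe sets.

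PFKFB3 and PFKFB4, which make the activator of phosphofructokinase and are both hypoxia-inducible, differed by -0.22 and -0.21. PFKFB3 had no overlap between the groups and an adjusted p of 0.0794. PFKFB2, a further enzyme of that family, differed by -0.13, but a dimmer PFKFB2 probe set gave 0.28. PDK3, another kinase of the dehydrogenase, is uncertain in direction: its brightest probe set gave 0.12 and its 3 others gave -0.19, -0.17 and -0.11.

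mRNAs of the oxygen-sensing system gave 0 calls among 6 by limma (1 lower and 0 higher at an unadjusted p under 0.05) and a median of -0.053. The median was -0.032 without CompE replicate 3, -0.031 without DMSO replicate 1, -0.087 without CompE replicate 2 and -0.081 without DMSO replicate 2. Hybridisation control centring gave -0.20 with 3 of the 6 called lower, though the distance from the median of all genes stayed at -0.073. HIF1A read 3045, 2977 and 2952 in CompE and 2885, 2910.1 and 2884 in DMSO cells. All CompE arrays were slightly above all DMSO arrays, but the log2 difference was only 0.048 (95% interval -0.06 to 0.16, adjusted p = 0.561), and with hybridisation control centring it was -0.095. EPAS1 (HIF-2 alpha), the other oxygen-labile subunit, read 70.3, 62.4 and 63.9 in CompE and 109, 79.9 and 88.5 in DMSO cells.

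These EPAS1 levels are not far above the Bacillus level, and the 3 DMSO arrays differed widely. Its log2 difference of -0.49 (95% interval -0.79 to -0.18) had an adjusted p of 0.0771 and was not called, although the groups did not overlap. It was called with the stricter filter (adjusted p = 0.029), hybridisation control centring (0.0329) and trended robust variance (0.0362), and in none of the leave-one-out fits (up to 0.182). The shared partner ARNT differed by -0.01, with 3 dimmer probe sets above the Bacillus level between -0.11 and 0.23. VHL differed by 0.015, and the prolyl hydroxylases EGLN1 and EGLN3 by -0.097 and -0.13. EGLN1 was lower on every CompE array and its 2 further probe sets gave -0.20 and -0.16. The protein level of these factors was not measured.

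Of 11 hypoxia-induced genes outside the glycolytic chain, 2 fell and 1 rose, where 2.57% and 4.56% of all genes did, and the log2 differences ran from -0.55 to 0.63. ADM, the vasodilator peptide adrenomedullin, was the 1 member that rose, and its promoter holds a GCGTG as that of SLC2A1 does. It read 807, 879 and 712 in CompE and 547, 541 and 464 in DMSO cells. The lowest CompE array was above the highest DMSO array, and the means were 799 ± 83.8 in CompE and 517 ± 46.1 in DMSO cells (SD, n = 3 each). That is a log2 difference of 0.63 (SE 0.11, adjusted p = 0.0282), or 1.54-fold. The ADM call held without CompE replicate 3 (adjusted p = 0.0403) and was lost without any other array (0.0713 to 0.1002).

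ANKRD37, an ankyrin-repeat protein whose promoter holds the CACGTG noted earlier, had the smallest adjusted p of all members. It read 677, 789 and 678 in CompE and 1068, 1038 and 1016 in DMSO cells. Means of 715 ± 64.8 in CompE and 1041 ± 26.2 in DMSO cells (SD, n = 3 each) gave a log2 difference of -0.55 (SE 0.076, adjusted p = 0.0164). The highest CompE array, replicate 2, was far below every DMSO array. Without that array the adjusted p was 0.0158, and without any other single array it was 0.0549 to 0.0708.

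DDIT4 (REDD1), an inhibitor of mTORC1 signalling that low oxygen and other stresses induce, read 3259, 3423 and 3154 in CompE and 3972, 3909 and 3912 in DMSO cells. The DMSO arrays were nearly equal and all above the CompE arrays. Its level averaged 3279 ± 135 in CompE and 3931 ± 35.9 in DMSO cells (SD, n = 3 each), a decrease of 16.6% (log2 difference -0.26, SE 0.051, adjusted p = 0.0395). This call too was lost on leaving out any single array (adjusted p 0.0658 to 0.131).

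**Figure D3:**
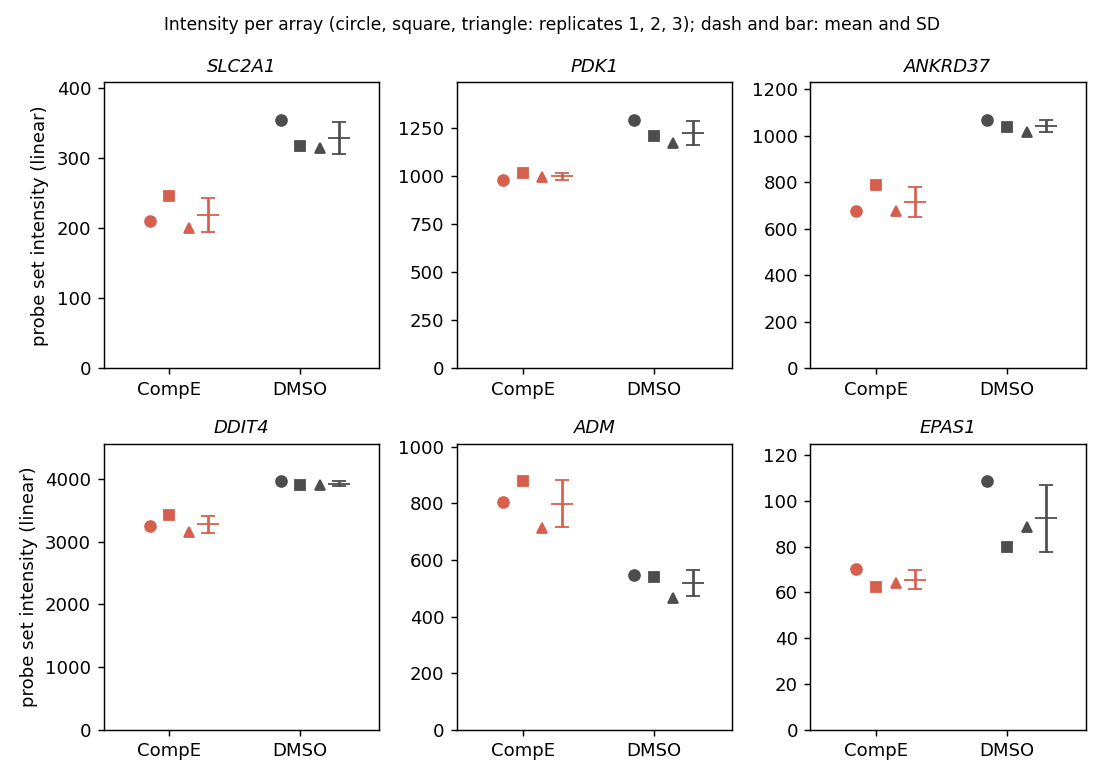
Probe set intensity (linear y axis from 0) on each array for the 5 called members and EPAS1, CompE left and DMSO right, with circle, square and triangle for replicates 1, 2 and 3 and the mean with its SD beside them (n = 3). CompE points lie below all DMSO points for SLC2A1, PDK1, ANKRD37, DDIT4 and EPAS1 and above them for ADM.

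VEGFA, the angiogenic growth factor most often read as a hypoxia marker, read 3718, 3968 and 3568 in CompE and 3694, 3315 and 3538 in DMSO cells. The groups overlapped and the log2 difference was 0.094 (95% interval -0.073 to 0.26), turning to -0.049 with hybridisation control centring and to -0.016 with the mean of its probe sets. Its 3 other probe sets gave -0.077, -0.076 and -0.0044. The remaining 7 were not called: the mitophagy receptors BNIP3 and BNIP3L differed by 0.062 and -0.073, the collagen prolyl hydroxylase subunits P4HA1 and P4HA2 by -0.12 and -0.29, the histone demethylase KDM3A by 0.068, the MYC antagonist MXI1 by -0.05 and NDRG1, a stress-responsive gene, by -0.14. Of these, BNIP3L was lower on every CompE array, and the groups overlapped for the other 6.

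Set side by side, the enzymes spanned a narrower range than the other hypoxia-induced genes. Their median log2 differences were -0.13 over 17 enzymes and -0.073 over 11 other genes, but with the mean of a gene's probe sets both were -0.12. All CompE arrays were lower for 12 of the 17 enzymes and for 3 of the 11 others, against 13.0% of all genes. The enzymes' median deviation from each gene's own mean was -0.090, -0.021 and -0.071 on the CompE arrays and 0.11, 0.047 and 0.023 on the DMSO arrays, without overlap. The other genes had -0.020, 0.051 and -0.12 in CompE and 0.067, 0.018 and -0.036 in DMSO, with overlap. The sets also differed in brightness: 10 of the 17 enzymes had a mean intensity of at least 4096. The highest group mean of the other genes was 3931 (DDIT4 in DMSO cells). These are descriptions, and neither the difference between the sets nor the part of brightness in it was tested.

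Within a group the members also varied together from array to array. CompE replicate 2 was the highest CompE array for 36 of 41 members (87.8%), against 40.5% of all genes and 54.7% of the 327 brightest. DMSO replicate 1 was the highest DMSO array for 35 of 41 (85.4%), against 38.8% of all genes and 49.5% of the brightest. ADM, which rose, and SLC2A1, which fell, both had their highest CompE value on replicate 2. The order held in both roles, in 15 of 17 enzymes for either array and in 10 of 11 other hypoxia-induced genes for either array. The further lists leaned this way less or not at all. The numbers were 21 (51.2%) and 26 (63.4%) of 41 further hypoxia-induced genes. They were 11 and 11 of 20 (55% each) for other glycolytic and gluconeogenic genes. For genes of the pyruvate dehydrogenase complex and the tricarboxylic acid cycle they were 12 (46.2%) and 13 (50%) of 26. Further oxygen sensing and HIF regulation had 7 and 7 of 14 (50% each). Glucose and lactate transport had 6 (50%) and 4 (33.3%) of 12, and there DMSO replicate 2 was highest for 6. The pentose phosphate pathway had 4 and 4 of 10 (40% each), and there CompE replicate 1 was highest for 5. The labels used here name no batch, and a part of any batch in these orders was not tested.

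Neighbouring pathways were read from 162 further genes in 7 lists, of which 137 were tested. Other glycolytic and gluconeogenic genes had 1 call in 20 (5%, under the 7.14% of all genes). The called gene was HKDC1, a hexokinase-like enzyme. It read 94.6, 126 and 95.5 in CompE and 204, 172 and 174 in DMSO cells, a log2 difference of -0.81 (adjusted p = 0.0286), larger in size than that of any member. Of the 20, 16 had a difference below 0. Further glucose and lactate transporters gave 1 call in each direction among 12 (16.7%). SLC2A6 (GLUT6) fell, with 152, 160.0 and 162 in CompE and 225, 226 and 209.6 in DMSO cells (-0.48, adjusted p = 0.0104).

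SLC2A12 (GLUT12) rose, with 89.6, 85.0 and 94.8 in CompE and 48.4, 47.3 and 49.9 in DMSO cells, where the DMSO readings were close to the Bacillus level. Its log2 difference was 0.89 (adjusted p = 0.00221), and the call held on leaving out each of the 6 arrays. HKDC1 was called without CompE replicate 2 and lost without any other array (adjusted p 0.0814 to 0.0982), and SLC2A6 was lost without CompE replicate 1 (0.0539) or DMSO replicate 2 (0.0514).

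The routes that glycolysis feeds showed no call by limma. Among 26 genes of the pyruvate dehydrogenase complex and the tricarboxylic acid cycle, 13 were above 0 and 13 below, with a median of 0.00088 (2 higher and 2 lower at an unadjusted p under 0.05). Among 10 pentose phosphate genes 6 were above 0 and the median was 0.010 (0 higher and 1 lower without adjustment). Among 14 further genes of oxygen sensing and HIF regulation 11 were above 0 and the median was 0.079 (2 higher and 0 lower without adjustment).

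A longer list of 41 further hypoxia-induced genes had 2 calls higher and 3 lower (12.2% called, against 7.14% of all genes). Its median was -0.070, with 27 values below 0. CCNG2 (cyclin G2, an inhibitor of cell cycle progression) rose, with 1685, 1640.1 and 1724 in CompE and 1053, 1111 and 1132 in DMSO cells (0.62, adjusted p = 0.00382), a call that held on leaving out each array. PLOD2 (a collagen lysyl hydroxylase, -0.35, adjusted p = 0.0191), KLF10 (a TGF-beta-inducible repressor, -0.36, adjusted p = 0.0227) and ERRFI1 (a feedback inhibitor of the EGF receptor, -0.39, adjusted p = 0.0233) fell. On leaving out 1 array, ERRFI1 held its call only without CompE replicate 1, and PLOD2 and KLF10 only without CompE replicate 3; the highest adjusted p values were 0.0864 for ERRFI1, 0.0848 for PLOD2 and 0.0865 for KLF10. The fifth called gene, PNRC1 (0.36, adjusted p = 0.0242), is named after its values were seen.

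**Figure D4:**
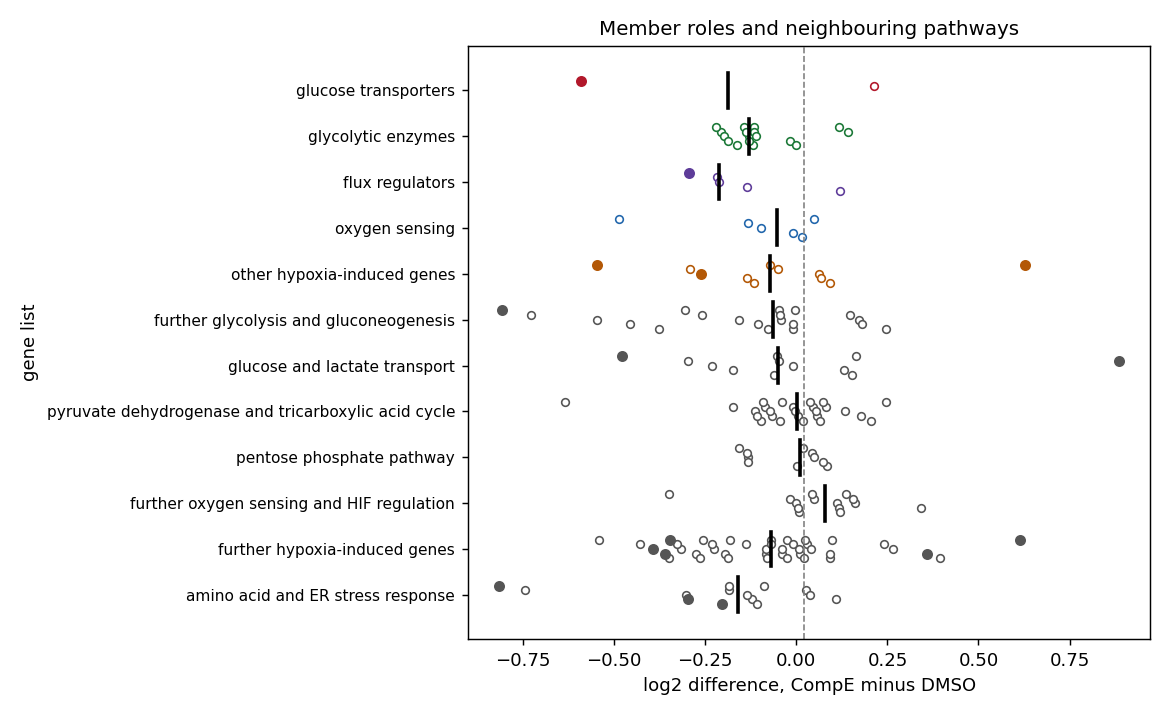
Log2 intensity difference, CompE minus DMSO (x axis), of every tested gene in the 5 member roles and 7 neighbouring lists (rows), each gene a circle, filled where adjusted p was under 0.05, with a bar at the list's median. The enzymes form a narrow cloud around -0.13, left of the dashed all-gene median at 0.02, while the tricarboxylic acid cycle list centres on 0.00.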

How the data were processed

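RNA was amplified from the 3' end, labelled with biotin and hybridised, per the labels' protocols. The authors deposited linear probe set intensities, normalized between arrays with dChip, per the series design text. The version of dChip was, like its use of mismatch probes, not given in the sources used here.

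Intensities under 1 were set to 1 before log2 was taken of the deposited values. Of 54674 probe sets, 62 controls and the lowest 40% by mean log2 (below 4.61, an intensity of 24.4) were left out. The platform annotation, with symbols updated by Entrez identifier, gave 41091 probe sets 1 gene, 1800 several and 11721 none. The brightest probe set over the 6 arrays stood for its gene. Members had 97 probe sets (83 past the filter), and 2 shared by SLC2A3 and SLC2A14 were left out. In 22 members with several, 27 of 42 further probe sets had the same sign, and 0 of the 15 others passed.

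CompE was compared with DMSO by limma 3.58.1 (R 4.3.3, lmFit and eBayes, two-sided, no covariate), with Benjamini-Hochberg adjustment over 14308 genes, a procedure tested on simulated data. Precision is limited by having 3 arrays per group. Groups came from sample titles. These do not say whether same-numbered cultures belong together, and the main fit did not pair them. Members and lists were chosen with earlier results of these data known. Called members, 7 set genes, and members without overlap and at least 0.25 apart on the log2 scale are given by array, with up to 4 called genes of each pathway list and the brightest of each marker list. Alternatives were filters, log offset, scalings, probe set choice, a low-variation subset, trended robust variance, a replicate block and leaving out each array.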

Additional observations from a re-analysis of the deposited data

How the results depend on the processing

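With 6 arrays, calls near the threshold are fragile. The 5 member calls were the same in number with log2(intensity + 16), quantile normalization, median centring, GAPDH controls allowed and the DMSO-brightest probe set. Members called numbered 0 with no filter (1 higher and 11 lower at an unadjusted p under 0.05), 8 with the stricter filter, 21 with hybridisation control centring, 3 with the mean of a gene's probe sets, 17 of 27 in the 10896 least variable probe sets, which by construction have low error, and 18 with trended robust variance. Enzymes made up 12 of the 21, 12 of the 17 and 11 of the 18. All genes called, 1021 otherwise, numbered 363, 1751, 1892, 765, 2920 and 2254 in the same order. Leaving out 1 array gave 0 to 2 members and 252 to 519 genes, with fewer samples by construction. The replicate block gave 0 members (1 higher and 8 lower unadjusted) and 102 genes, and same-numbered deviations correlated at 0.025, -0.10 and -0.021, with 1 of 3 CompE arrays correlating best with its own number. The enzyme median stayed between -0.15 and -0.10 without any 1 array, and hybridisation control centring gave -0.27, or -0.26 without CompE replicate 2 as well, a choice made after seeing the data. For the other hypoxia-induced genes these were -0.087 to -0.060, -0.22 and -0.19, and -0.12 with the mean of a gene's probe sets. With that centring 2 members had a difference above 0, against 10 otherwise. Among the members given by array, signs reversed for HIF1A (-0.095, adjusted p 0.292) and VEGFA (-0.049, adjusted p 0.586) with it, for VEGFA with the mean of its probe sets (-0.016, adjusted p 0.912), and for GAPDH without CompE replicate 3 (0.014, adjusted p 0.892; -0.047 without CompE replicate 2). Where no value above shows it, the cause was not tested.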

Other observations

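The amino acid and ER stress response genes, a stress programme that also induces DDIT4, had 3 of 14 lower (21.4%) and 0 higher. Among all genes 2.57% were called lower and 4.56% higher. The list's median log2 difference was -0.16. ATF3, a stress-induced transcription factor, read 116, 151 and 108 in CompE and 241, 218 and 198 in DMSO cells (-0.82, limma adjusted p = 0.0318). TRIB3, a pseudokinase of the same response, read 2907, 2872 and 2841 in CompE and 3672, 3473 and 3449.9 in DMSO cells (-0.30, limma adjusted p = 0.0266). HSPA5, the main chaperone of the endoplasmic reticulum, read 4057, 4006 and 4024 in CompE and 4652, 4609 and 4665 in DMSO cells (-0.20, limma adjusted p = 0.0476). In each of the 3 all CompE arrays lay below all DMSO arrays. On leaving out 1 array, ATF3 held its call only without CompE replicate 2 (adjusted p = 0.0228, otherwise up to 0.109), and TRIB3 and HSPA5 lost theirs whichever array was left out (up to 0.0933 and 0.143). All 3 calls were also lost with no filter, with the mean of a gene's probe sets and with the replicate block, and that of HSPA5 with quantile normalization (0.0525). CompE replicate 2 was the highest CompE array for 9 of the 14 genes (64.3%), against 40.5% of all genes. DMSO replicate 1 was the highest DMSO array for 4 (28.6%), against 38.8% of all genes, and DMSO replicate 2 for 7.

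The 3' to 5' ratio of the ACTB control probe sets was 0.59 ± 0.018 in CompE and 0.52 ± 0.020 in DMSO on the log2 scale (SD over 3 arrays each; exact permutation p = 0.1, which is as small as this design allows), and that of GAPDH was -0.081 ± 0.040 in CompE and -0.047 ± 0.016 in DMSO (exact permutation p = 0.3). Within groups the arrays correlated at r = 0.987 to 0.989 over 6 pairs, and between groups at 0.981 to 0.985 over 9 pairs. Probe sets, the points behind r, are no replicates.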
